A study of Drosophila melanogaster with 2 samples.

Results

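Single, non-divergent promoter peaks were binding sites of the CG30020-eGFP protein at the start of a protein-coding gene that had no head-to-head partner. A peak belonged to the set when it was in the authors' reproducible peak list and not on chromosome 4 or Y, and when its summit lay within 500 bp of a protein-coding transcription start site (TSS). It was left out when the TSSs of 2 genes on opposite strands pointed away from each other there, at most 500 bp apart and both within 500 bp of the summit. Of 5048 peaks in the list, 2062 (40.8%) met this rule. They made up 59.9% of the 3444 protein-coding promoter peaks outside chromosomes 4 and Y, and the other 1382 were divergent promoter peaks.

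The data came from chromatin immunoprecipitation and sequencing (ChIP-seq) in Drosophila melanogaster, in 1 group with 2 biological replicates, numbered 2 and 3. Per the labels, the flies were a stable transgenic line that expressed CG30020 with a C-terminal eGFP tag. Chromatin of whole, mixed-sex embryos aged 0 to 24 h was immunoprecipitated, with fragments of 200 to 800 bp. The description names an antibody against GFP, while the antibody tag in the labels reads CG30020, and the description was followed here. The authors derived the reproducible list with an irreproducible discovery rate (IDR) threshold from both replicate lists and a pooled list, all called against a control. All cells of the embryo and all ages were pooled, the sources used here do not name the promoter that drives the tagged gene, and no untagged or mutant group was analysed here, so no condition could be compared and no test was run. Error is shown by the value in each replicate's own list.

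Many broadly active genes of Drosophila start at promoters that lack a TATA box and carry other short elements. Among these are the DNA replication-related element (DRE), bound by the factor Dref, and Motif 1, bound by M1BP. Genes switched on in particular tissues more often use a TATA box, an initiator or GAGA repeats, and in this compact genome neighbouring genes often start back to back, which is why single promoters were separated from divergent ones here.

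The first set of sequences shows the 3 strongest single-promoter peaks with a DRE within 50 bp of the summit, outside heavily covered bins (100-kb bins in which IDR peaks took at least 10% of the bases). Each is the 101 bp around the summit in Release 6 (dm6), written 5′ to 3′ on the strand of the nearest gene, with the summit at position 51 and the DRE (TATCGATA, its own reverse complement) in capitals. They come from chr2L:21573246-21573346 on the plus strand (Lamp1, a lysosomal membrane protein), chrX:11137720-11137820 on the plus strand (CDK2AP1) and chr3L:19991809-19991909 on the plus strand (Nca, the calcium sensor neurocalcin). The DRE sat on either side of the summit, from position 33 in Nca to position 90 in CDK2AP1.
Lamp1: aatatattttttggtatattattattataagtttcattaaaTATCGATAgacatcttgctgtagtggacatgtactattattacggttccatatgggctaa
CDK2AP1: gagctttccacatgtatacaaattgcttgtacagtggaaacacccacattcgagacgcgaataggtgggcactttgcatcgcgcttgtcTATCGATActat
Nca: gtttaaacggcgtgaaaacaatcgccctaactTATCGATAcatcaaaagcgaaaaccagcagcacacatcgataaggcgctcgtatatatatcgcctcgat

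The second set shows the 3 strongest with a Motif 1 core (GGTCACAC or its reverse complement, in capitals), chosen the same way. They come from chrX:11148600-11148700 on the minus strand (Ran, the GTPase of nuclear transport), chr2L:7426574-7426674 on the plus strand (muc, a subunit of the pyruvate dehydrogenase complex) and chr3R:24252679-24252779 on the minus strand (beta-PheRS, which charges tRNA with phenylalanine).
Ran: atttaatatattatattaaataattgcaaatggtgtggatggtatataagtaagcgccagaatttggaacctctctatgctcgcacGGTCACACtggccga
muc: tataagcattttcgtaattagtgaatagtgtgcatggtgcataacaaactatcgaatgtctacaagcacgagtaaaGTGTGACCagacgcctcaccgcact
beta-PheRS: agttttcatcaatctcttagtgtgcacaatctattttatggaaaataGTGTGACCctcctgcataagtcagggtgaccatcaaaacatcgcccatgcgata

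The third set shows the 3 strongest outside heavily covered bins with neither the DRE nor the Motif 1 core, which 88.6% of single-promoter windows lacked. They come from chr3L:24028409-24028509 on the plus strand (CG40045), chr2L:22981724-22981824 on the plus strand (cta, a G protein alpha subunit of gastrulation) and chr3L:27083932-27084032 on the minus strand (CG40228). Capitals here mark 2 short elements that were picked after the windows of the strongest peaks had been seen, TGGAAC (element A) and GTGNGAA (element B), or their reverse complements.
CG40045: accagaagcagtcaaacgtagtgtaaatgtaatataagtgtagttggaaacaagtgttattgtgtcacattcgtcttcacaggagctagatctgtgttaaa
cta: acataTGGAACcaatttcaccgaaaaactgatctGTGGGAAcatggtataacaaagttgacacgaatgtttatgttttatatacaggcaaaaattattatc
CG40228: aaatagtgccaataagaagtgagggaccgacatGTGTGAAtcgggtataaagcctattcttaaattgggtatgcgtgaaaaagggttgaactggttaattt

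The fourth set, also picked afterwards, shows the 3 strongest single-promoter peaks with element A whatever their bin, with the same capitals. They come from chr3L:25115927-25116027 on the minus strand (MED21, a Mediator subunit), chr2L:10366617-10366717 on the plus strand (CG5056) and chr2L:22536731-22536831 on the minus strand (RpL5, a protein of the large ribosomal subunit).
MED21: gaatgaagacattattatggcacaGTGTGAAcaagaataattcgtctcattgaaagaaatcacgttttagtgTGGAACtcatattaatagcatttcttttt
CG5056: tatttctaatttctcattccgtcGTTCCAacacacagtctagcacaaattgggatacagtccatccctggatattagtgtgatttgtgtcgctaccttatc
RpL5: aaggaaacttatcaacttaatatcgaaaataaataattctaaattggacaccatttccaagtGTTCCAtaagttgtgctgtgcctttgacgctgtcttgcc

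Both replicates held nearly all of these peaks, which the IDR threshold and the long replicate lists fix in large part. A replicate summit lay within 250 bp of 97.9% of single-promoter summits in replicate 2 and of 99% in replicate 3. In 2001 cases (97.0%) both lists had one, and in 3 cases neither had. For divergent promoter peaks the share found in both lists was 98.7%. Over the 2001 peaks the signals of the replicates had a Spearman's rho of 0.862 and a Pearson's r of 0.930 on the log2 scale, across peaks of the same libraries that are not independent of each other. Between replicates, the log2 ratio (3 over 2) varied with an SD of 0.65 over single-promoter peaks and 0.45 over divergent ones.

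The peaks were spread over many genes. They formed part of 1725 merged intervals and had 1713 nearest genes, of which 1397 had 1 such peak, 291 had 2, 18 had 3 and 7 had more. CkIIalpha, the catalytic subunit of casein kinase II, had 5. In 1824 cases a single protein-coding gene started within 500 bp of the summit, in 228 cases 2 did and in 10 cases 3 did. Of these 238 shared windows, 188 held starts on both strands that did not form a head-to-head pair within the limit. The rule looked at protein-coding pairs, and 83 members (4.03%) had a head-to-head pair that includes a non-coding gene. Their median signal, 1.00 times that of all IDR peaks, was close to the 0.992 times of the other single-promoter peaks.

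The summits were found mainly in the region directly before the TSS. Their median position was -90 bp relative to the nearest protein-coding TSS, with quartiles of -192 and -28 bp, and 84.5% were upstream of it. The 100 bp directly upstream held 37.1% of summits, and the next 100 bp held 23.5%. The first 100 bp of the transcript held 8.87%, and 6.60% lay further downstream. The strongest peaks of replicate 2 alone had a median of -108 bp with 86.5% upstream, and those of replicate 3 had -85 bp with 81.0% upstream. Divergent promoter summits had a median of -72 bp, with 78.7% upstream of the nearest TSS, but there the nearest TSS is one of a pair. At the edge of the rule, 14 members had their summit 451 to 500 bp from a TSS, with a median signal of 0.803 times that of all IDR peaks, and 37 peaks outside it lay 501 to 550 bp from a TSS, at 0.983 times.

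**Figure D1:**
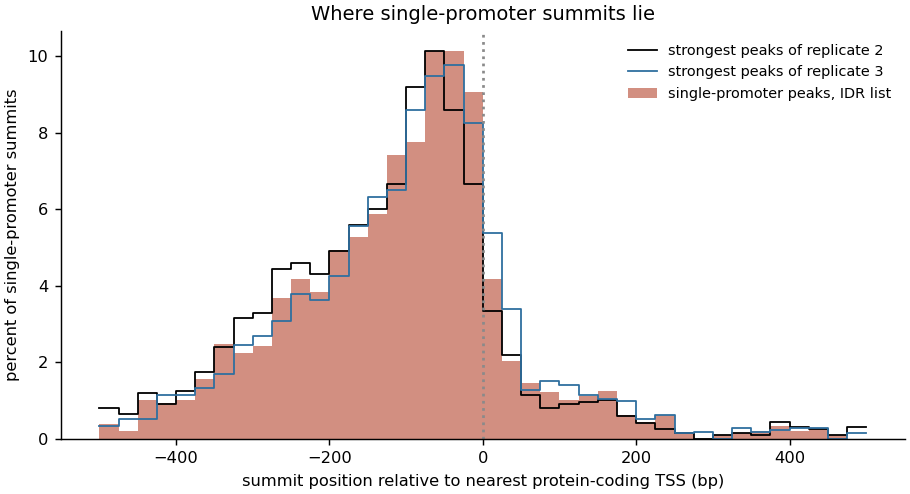
Position of single-promoter summits relative to the nearest protein-coding TSS, in bp along the gene, as the percent of summits in 25-bp bins. Bars are the IDR list and lines are the strongest peaks of replicate 2 and replicate 3, and in all 3 the highest bins lie within 100 bp upstream of the TSS.

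Most of these peaks were of ordinary strength and a few were very strong. Signal was divided by the median of all IDR peaks, and for each replicate by the median of the matching peaks in its list, since the authors' scale is not stated. The median single-promoter peak stood at 0.992 times the median IDR peak (0.963 in replicate 2 and 0.997 in replicate 3), and the median divergent promoter peak at 1.11 times (1.13 and 1.10). At the 90th percentile the order was turned, with 4.90 times for single promoters and 2.86 times for divergent promoters, and at the 99th percentile the values were 38.8 and 14.5 times. More than 5 times the median was reached by 205 single-promoter peaks (9.94%) and by 58 divergent ones (4.20%). Replicate 2 gave 12.7% of single-promoter peaks and 5.01% of divergent ones over that level, and replicate 3 gave 11.0% and 4.01%. A replicate value is that of the strongest summit within 250 bp, so neighbouring peaks can share it, which can raise such replicate shares. Of the 100 strongest peaks of the whole list 67 were single-promoter peaks and 8 were divergent. The median log2 signal of single minus divergent promoter peaks was -0.17 (-0.23 in replicate 2 and -0.15 in replicate 3), but it was 0.059 with windows of 200 bp in the rule and 0.15 among IDR peaks above the median signal. The difference between the classes was not tested.

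Part of this tail lay in heavily covered bins. Such bins held 221 single-promoter peaks (10.7%), with a median of 5.85 times the median IDR peak, and 41 divergent ones (2.97%), with 4.15 times. These bins are defined from the width of the same peaks, so their signal is not an independent measure. Outside them 4.89% of single-promoter peaks and 2.91% of divergent ones exceeded 5 times the median, with 6.44% and 3.60% in replicate 2 and 5.10% and 2.71% in replicate 3. The median outside these bins was 0.938 times for single promoters and 1.10 times for divergent promoters. However, the 12 strongest single-promoter peaks outside heavily covered bins still lay within 5 Mb of one. The 2 classes were not compared farther away. The median single-promoter interval was 484 bp wide. The widest, of 11845 bp on 2R, held summits at Not3, a subunit of the CCR4-NOT deadenylase, and at kune, a claudin of septate junctions.

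**Figure D2:**
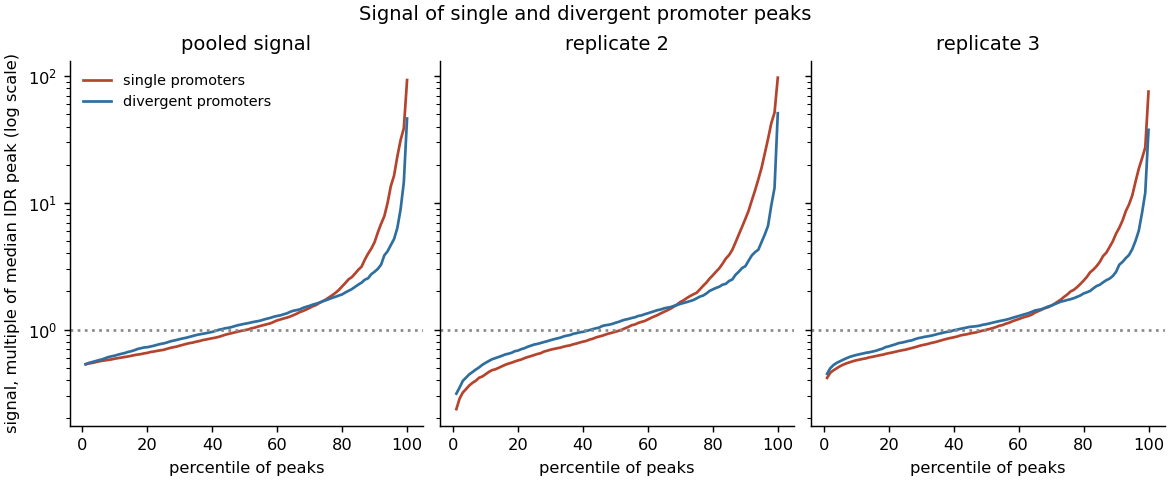
Signal at each percentile of single-promoter and divergent promoter peaks, in multiples of the median IDR peak on a log axis, for the pooled signal and for each replicate. In each panel the single-promoter line runs slightly below the divergent line at the 50th percentile and above it at the 90th, where the pooled values are 4.90 and 2.86 times.

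The strongest single-promoter peaks included those of genes for translation, transcription and vesicle traffic, and many at genes with only a CG number. Among the latter, CG10417 had 69.7 times the median in replicate 2 and 43.3 times in replicate 3, and CG17683 had 70.5 and 39.9 times. The strongest of all lay 38 bp upstream of eEF5, a translation factor that aids peptide bond formation, on 2R (24056543 to 24064505). It stood at 97.2 times the median in replicate 2, 75.5 times in replicate 3 and 93.1 times in the pooled list. MED21 on 3L (25113695 to 25123625) had 74.1 times in replicate 2 and 36.7 times in replicate 3. The peaks of gus, which encodes a SOCS-box protein of the germ line, had 62.1 and 37.9 times in replicates 2 and 3, those of Spf30, a splicing factor, had 69.1 and 31.7 times, and those of Nipped-A, a subunit of histone acetyltransferase complexes, had 59.6 and 31.2 times. Vps11, which tethers vesicles to lysosomes, stood at 56.5 and 29.9 times, me31B, an RNA helicase of repressed messenger RNA, at 51.2 and 27.7 times, and sxc, the O-GlcNAc transferase, at 49.6 and 26.8 times.

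All of the 20 strongest, counted as 1 per merged interval, lay within 150 bp of a TSS, 19 of them upstream. Of the 20, 12 lay on 2R, 4 on 3L, 3 on 2L and 1 on 3R, and 19 were in heavily covered bins. Replicate 2 gave the higher multiple at all 20. The strongest on X lay at nonA, an RNA-binding protein, with 27.4 times in replicate 2 and 26.3 times in replicate 3. Tim17b on 3R, part of the protein import channel of mitochondria, had its summit 24 bp downstream of the TSS.

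Outside heavily covered bins the strongest peaks included CG40045, with 54.8 times the median in replicate 2 and 26.9 times in replicate 3, and cta, with 52.6 and 24.4 times. They also included vtd, the Rad21 subunit of cohesin (50.04 and 23.7 times), Lamp1 (34.6 and 24.7 times), lt, a vesicle-tethering protein needed for eye pigment (38.5 and 18.3 times), and Hr39, a nuclear receptor (28.3 and 22.1 times). These peaks lay within 5 Mb of a heavily covered bin, so a further selection, made after the values were seen, took the 987 members more than 5 Mb from any heavily covered bin. There cact, the inhibitor of Dorsal, led with 16.8 times in replicate 2 and 19.9 times in replicate 3. It was followed by Dph2, an enzyme of diphthamide synthesis (19.1 and 15.4 times), tho2, of the THO complex (15.3 and 13.3 times), and Sry-delta, a zinc finger protein (14.0 and 12.6 times). At these 4 peaks the replicates lay closer together than at CG40045, cta and vtd, and at cact replicate 3 was the higher one.

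At the other end, the 3 weakest members lay at Sirup, Ogdh and Pak, at 0.528 times the median each in the pooled list. Ogdh, a subunit of the 2-oxoglutarate dehydrogenase complex, had 0.338 times in replicate 2 and 0.597 times in replicate 3. Pak, a kinase of the actin cytoskeleton, had 1.16 and 0.919 times. The match takes the strongest replicate summit within 250 bp, which can belong to a neighbouring summit. A weaker summit 384 bp upstream of tho2 had 0.992 times in the pooled list but 7.77 times in replicate 2. The stronger summit 88 bp upstream of tho2 was matched to 15.3 times in replicate 2, so the 2 did not share a value. Whether the 7.77 times belongs to a neighbouring summit was not tested. The gene of the tagged protein, CG30020, had a member 22 bp upstream of its TSS on 2R (10886603 to 10886924), at 1.16 times in replicate 2 and 1.15 times in replicate 3.

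The replicates differed in a way that followed peak strength. In the strongest 20% of members (2.19 to 93.1 times the median) the median log2 ratio of replicate 3 to replicate 2 was -0.32, and in the weakest 20% (0.528 to 0.656 times) it was 0.20. Both replicates held 99.5% of the strongest 20% and 93.7% of the weakest. From the strongest 20% down to the weakest, the median widths were 1544, 468.5, 338, 293 and 524 bp, so width did not fall steadily. Many weak members were exactly 524 bp wide. Heavily covered bins held 37.8% of the strongest 20% and 3.15% of the weakest. The part of depth or background in the change of the replicate ratio with strength was not tested, since depth is unknown from peak lists.

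All 5 large arms carried single-promoter peaks. There were 453 on 2L, 443 on 2R, 383 on 3L, 424 on 3R and 359 on X. Outside heavily covered bins the median multiple ranged from 0.897 on X to 0.975 on 3R. The single-promoter peaks above 5 times the median were less even, with 66 on 2R, 61 on 2L, 32 on 3L, 25 on X and 21 on 3R.

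Sequence at the summits was poor in G and C. The 101-bp windows had a GC content of 35.1% ± 9.47 (SD over 2062 windows), against 40.1% ± 7.19 in windows 300 bp to either side, and GC content was lower at the summit than in the flanks in 63.5% of members. Divergent promoter summits had 32.6% ± 9.85. Promoters with no peak have no summit, so they were compared in windows placed 90 bp upstream of every TSS. These 101-bp windows end short of the TSS. Genes with a member count with all their TSSs (3041 for 1779 genes), with or without a peak there. Placed in this way, windows had 38.9% at non-divergent genes with a member and 41.5% at those with no peak, a smaller gap than between summits and promoters with no peak. Overlapping windows share bases, so these SDs describe windows and are not errors of independent sites.

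The DRE was more frequent at the summits than beside them. It was present in 154 single-promoter windows (7.47%), 6.75% in replicate 2 and 7.36% in replicate 3, against 1.21% of flanks and 7.02% of divergent summits. In windows 90 bp upstream of the TSS it was in 4.57% of promoters of genes with a member, 1.57% of promoters with no peak and 2.83% of all protein-coding promoters. Its shorter core CGATA, which BEAF-32 also binds and which every DRE contains, was in 31.2% of member windows, 13.5% of flanks and 31.3% of divergent windows. Among all 2080 strand-collapsed 6-base words, the 3 with the largest excess over flanks were parts of or neighbours to the same element. TATCGA was in 20.3% of members and 5.38% of flanks, ATCGAT in 17.2% and 4.12%, and CGATAG in 14.7% and 3.44%.

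The Motif 1 core was in 90 windows (4.36%), with 3.50% in replicate 2 and 5% in replicate 3. Flanks held it in 0.533% of cases and divergent summits in 3.55%. At the fixed distance from the TSS it was in 1.61% of promoters of genes with a member, 0.635% of promoters with no peak and 1.45% of all promoters. In the 90 member windows it lay on the strand of the gene in 72 (80.0%). Its median position there was -1 bp relative to the TSS, with quartiles of -34 and 12 bp. Most of these sites thus lay outside the fixed window, so its shares are no background for the summits. The DRE, which reads the same on both strands, had a median position of -37.5 bp, also outside that window. Its members had their summits at a median of -47.5 bp, against -100 bp for members with no DRE. DRE and Motif 1 were found together in 8 windows, and 236 windows (11.4%) held at least 1 of them.

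Further promoter elements were also more frequent at the summits than beside them. Their shares of promoters are from windows at the fixed distance of 90 bp upstream of the TSS, which end short of the TSS. Motif 7 had a median position of -20.5 bp in member windows, so most of those sites lay outside the fixed window. Motif 7 (CANCNCTA) was in 7.86% of members and 3.06% of flanks. At the fixed distance it was in 4.47% of promoters of genes with a member, 2.91% with no peak and 4.29% of all. Motif 6 (GTATNTTT) was in 7.66% of members and 3.90% of flanks, and at the fixed distance, in the same order, in 7.07%, 4.31% and 5.53%. The ZIPIC core (AGGGNTG) was in 6.30% of members and 1.96% of flanks, and at the fixed distance in 4.67%, 2.42% and 3.59%. Its reverse complement is by its letters a form of CANCNCT, the start of Motif 7, and 34 of its 130 windows also held the full Motif 7. The TATA box (TATAAA) was in 21.7% of members and 15.0% of flanks. Divergent summits had it in 25.2% and peaks away from promoters in 24.0%. At the fixed distance its shares were 15.7%, 14.7% and 16.3%, so in those windows promoters of genes with a member did not exceed all promoters. Whether they differ in TATA boxes nearer the TSS was not tested.

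GAGA repeats and the Zelda site were less frequent at the summits than beside them. GAGAGA was in 2.28% of members and 5.50% of flanks. At the fixed distance from the TSS the order was turned, with 9.14% of promoters of genes with a member, 7.97% of promoters with no peak and 7.26% of all promoters. The Zelda site (CAGGTAG) was in 0.145% of members and 0.727% of flanks, and at the fixed distance, in the same order, in 0.592%, 0.855% and 0.683%. The E-box (CAGCTG) differed little, at 4.36% of members and 4.0% of flanks, and had 4.83%, 5.74% and 6.09% at the fixed distance. Between member and divergent windows the TATA box had the largest gap of the 16 elements, and no gap was tested. All motifs were searched on both strands. A match is a description of the letters in a window, not a site or a cause.

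**Figure D3:**
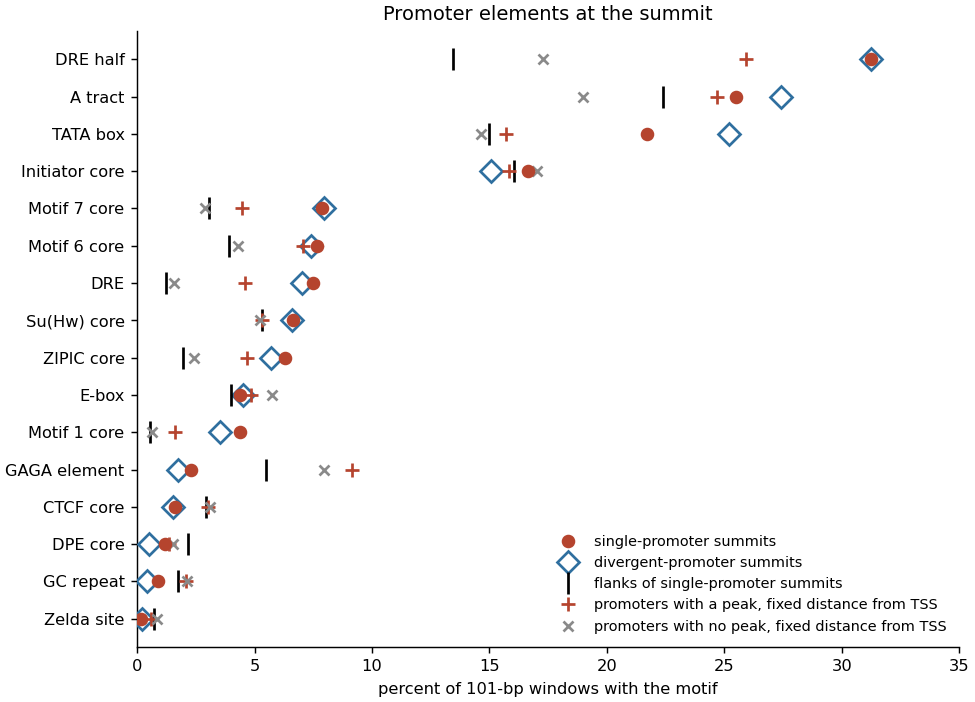
Percent of 101-bp windows that hold each of 16 promoter elements, for single-promoter summits, divergent-promoter summits, flanks of single-promoter summits, and windows 90 bp upstream of the TSS. The last were placed at every TSS of non-divergent genes with a member, with or without a peak there, and of those with no peak. The DRE stands at 7.47% of single-promoter summits and 1.21% of flanks, and the GAGA element lies the other way, at 2.28% and 5.50%.

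Elements differed between strong and weak members. The Motif 1 core was in 2.18% of the strongest 20% and 7.26% of the weakest 20%, where flanks had 0.484% each. With members ranked by replicate 2 alone the values were 1.98% and 6.93%, and by replicate 3 they were 1.96% and 6.85%. Divergent promoter peaks had it in 1.08% of their strongest 20% and 7.94% of their weakest, with 0.903% and 2.71% in the flanks. Peaks away from promoters (1.07% and 0.712%) and on chromosome 4 (2.56% and 0%) did not show this order. The DRE did not change steadily among members, with 6.05% in the strongest 20%, 9.71% in the middle 20% and 7.99% in the weakest. Members with a Motif 1 core had a median signal of 0.823 times the median IDR peak, against 1.00 times for the other members, and those with a DRE had 0.905 times against 0.999 times.

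Element A (TGGAAC) ran the other way. It was in 11.1% of the strongest 20%, with 3.75% in the flanks, and in 3.87% of the weakest 20%, with 3.87% in the flanks. Element B (GTGNGAA) was in 14.3% of the strongest 20%, with 4.72% in the flanks, and in 5.08% of the weakest, with 4.48% in the flanks. Ranking by each replicate alone gave 10.4% and 10.3% of the strongest 20% for element A and 14.4% and 13.4% for element B, in replicates 2 and 3. At least 1 of the elements was in 98 of the 413 strongest members (23.7%) and in 12.2% of all members, and both were in 8 members. Of all promoters 3.95% held element A and 5.16% element B in a window of the same length.

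Since both elements were picked from the strongest members, their shares there are a description and support nothing. This holds too for members outside heavily covered bins, whose strongest 20% had element A in 7.59%, with 3.93% in the flanks, and element B in 12.2%, with 5.96%. Other peaks were not used to pick them. Divergent promoter peaks had it in 6.14% of the strongest 20% and 5.78% of the weakest, with 4.87% and 4.33% in the flanks. On chromosome 4 it was in 4 of the strongest 39 peaks (10.3%) and 3 of the weakest 39 (7.69%), with 3.85% and 7.69% in the flanks. Peaks away from promoters had it in 7.47% of the strongest 281 windows and 3.56% of the weakest, with 4.09% and 4.27% in the flanks. Element B was in 9.75% of the strongest and 4.69% of the weakest 20% of divergent promoter peaks, with 6.32% and 5.78% in the flanks. On chromosome 4 it was in 6 of 39 (15.4%) and 3 of 39 (7.69%), with 7.69% and 2.56% in the flanks, and away from promoters in 10.3% and 4.27%, with 5.69% and 3.74% in the flanks. These differences were not tested. The part of the dense regions in this pattern was not tested.

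**Figure D4:**
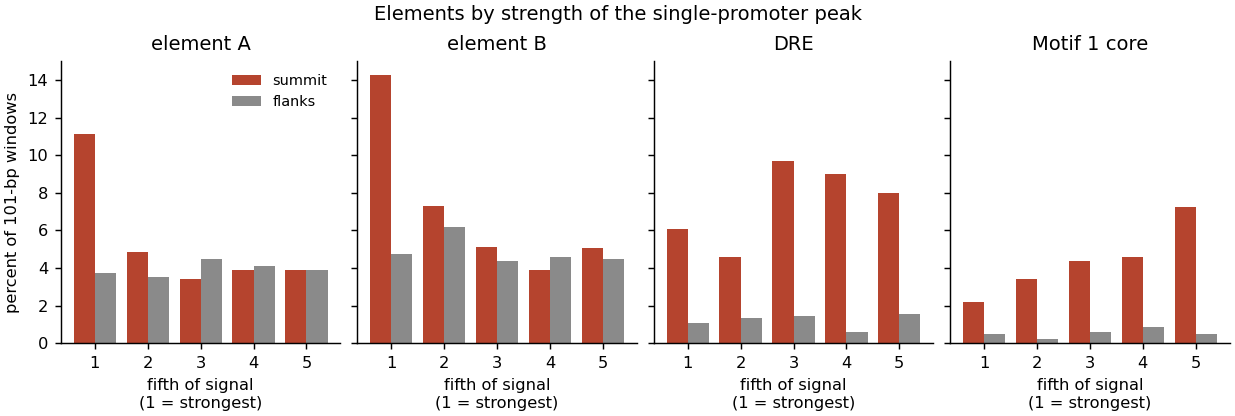
Percent of 101-bp windows with element A, element B, the DRE and the Motif 1 core at single-promoter summits and in their flanks, in 5 equal classes of members by pooled signal from strongest (1) to weakest (5). Elements A and B stand apart from their flanks in the strongest 20%, at 11.1% and 14.3%, and the Motif 1 core is highest in the weakest 20%, at 7.26%.

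Seen from the genes, 1779 of 10064 protein-coding genes with no divergent promoter had a single-promoter peak within 500 bp of a TSS, or 17.7%. Replicate 2 alone gave 16.9% and replicate 3 alone 17.7%, and the 1410 genes found in both made up 82.7% of the genes of replicate 2 and 79.0% of those of replicate 3. Outside heavily covered bins the share was 16.6%, and inside them 141 of 189 genes (74.6%) had a peak, a share that is high by the definition of these bins. By arm the share ran from 15.1% on 3R and 17.2% on 3L to 18.4% on 2R, 18.6% on 2L and 20% on X.

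Among the 18 gene lists, 11 lay above the 17.7% of all non-divergent genes, with cytoplasmic ribosomal proteins highest. Of the 55 cytoplasmic ribosomal protein genes with no divergent promoter 42 had one (76.4%), with 74.5% in replicate 2 and 80.0% in replicate 3. Their median signal was 1.14 times the median IDR peak, so most were of ordinary strength. RpL5 reached 54.7 times in replicate 2 against 28.3 times in replicate 3. RpL10 had 41.2 and 24.6 times, RpS27A 31.3 and 26.1 times and RpL15 43.6 and 19.3 times, all 4 in heavily covered bins. RpL10Aa and RpL17 had none. Outside those bins 35 of 47 of these genes (74.5%) had a peak.

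Translation factors had a peak in 19 of 34 cases (55.9%, with 55.9% in replicate 2 and 50% in replicate 3). After eEF5 came eIF4B, which helps to load messenger RNA on the ribosome, with 24.7 times in replicate 2 and 8.68 times in replicate 3, and eEF1delta, an exchange factor of elongation, with 18.0 and 10.8 times. Mitochondrial ribosomal protein genes had a peak in 10 of 20 cases (50%), led by mRpS5 with 17.4 and 10.9 times. Oxidative phosphorylation genes had one in 23 of 56 cases (41.1%, with 33.9% in replicate 2 and 41.1% in replicate 3). UQCR-11 of complex III stood at 59.9 and 24.4 times, and ND-AGGG and ND-MLRQ of complex I at 31.1 and 10.8 times and at 20.5 and 11.1 times. Aminoacyl-tRNA synthetase genes had a peak in 4 of 13 cases (30.8%), beta-PheRS among them at 4.34 and 3.73 times, and proteasome genes in 8 of 24 (33.3%), led by the ubiquitin receptor Rpn10 at 2.36 and 2.06 times.

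Several lists of nuclear proteins were small. Spliceosome genes had a peak in 10 of 14 cases (71.4%, with 57.1% in replicate 2 and 64.3% in replicate 3), and Mediator genes in 6 of 9 (66.7%, with 55.6% and 66.7%). Of the insulator and promoter-binding factors 10 of 14 had one (71.4%, with 71.4% and 64.3%). Among them were Clamp, which binds GA repeats, with 29.3 times in replicate 2 and 20.4 times in replicate 3, and mod(mdg4), a partner of Su(Hw), with 1.39 and 1.24 times, and CG30020 is counted in this list. DNA replication and cell cycle genes had a peak in 13 of 27 cases (48.1%), such as RnrL and RnrS, the ribonucleotide reductase subunits, with 2.46 and 3.03 times and with 2.14 and 1.72 times. Polycomb and Trithorax group genes had one in 8 of 17 (47.1%), such as Utx, a histone demethylase, with 9.55 and 8.63 times, and Pc, the chromodomain protein of Polycomb repression, with 2.15 and 1.68 times.

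Genes of single tissues and stages seldom had a single-promoter peak. None of 207 genes for chemosensory receptors and odorant-binding proteins and none of 27 trypsin-like protease genes had one in the IDR list or in either replicate. Cuticle and chitin genes had one in 2 of 127 cases (1.57%), the chitinases Cht7 and Cht10. Cytochrome P450 genes had one in 2 of 77 cases (2.60%), and in both the nearest TSS was that of another gene, Ufsp1 at Cyp6u1 and CG5167 at Cyp9f2. Of 41 segmentation and homeotic genes nkd alone, an inhibitor of Wingless signalling, had a peak, with 0.932 times the median in replicate 2 and 1.19 times in replicate 3, and Antp and Abd-B had none. Of 31 neural genes 2 had one, the RNA-binding protein elav (2.64 and 3.03 times) and the zinc finger repressor scrt (1.39 and 2.13 times). Muscle genes had a peak in 4 of 24 cases (16.7%), close to the 17.7% of all non-divergent genes, with Actn, the actin cross-linker alpha-actinin, at 2.90 and 3.81 times and Mef2, the muscle transcription factor, at 0.479 and 0.553 times. No expression was measured, so these shares were not set against the activity of the genes.

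**Figure D5:**
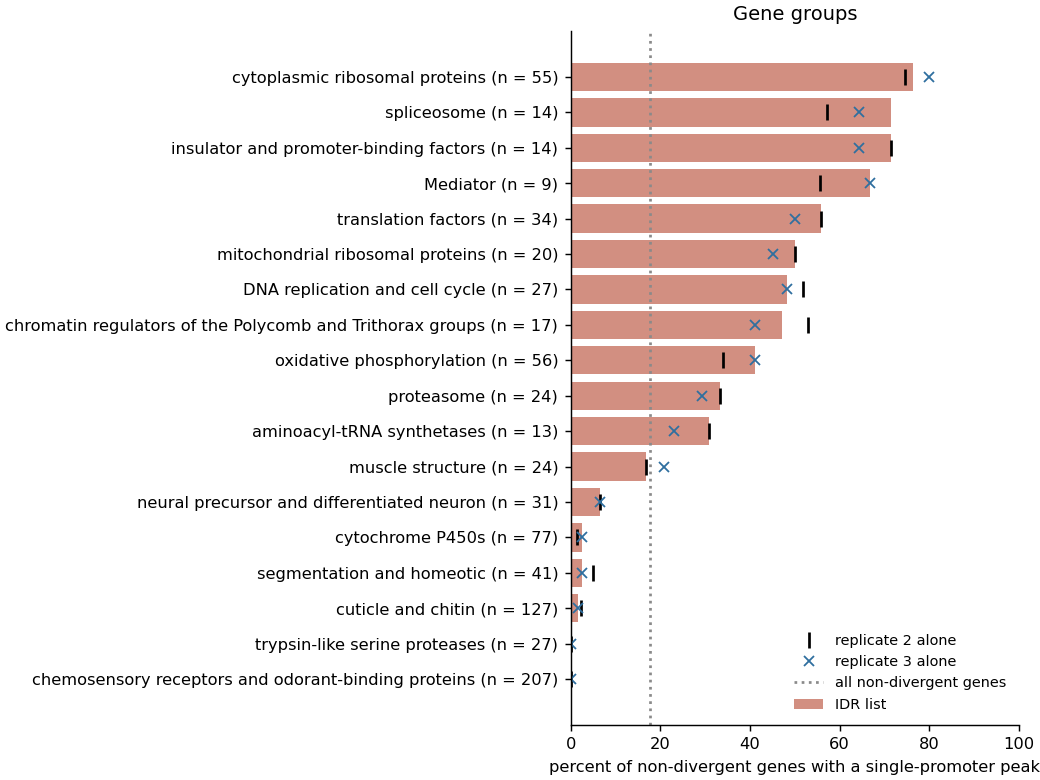
Percent of the non-divergent genes of 18 gene lists that had a single-promoter peak, with bars for the IDR list, ticks for replicate 2 and crosses for replicate 3. The dotted line marks the 17.7% of all non-divergent genes, and the lists run from 76.4% for cytoplasmic ribosomal proteins down to 0% for chemosensory genes.

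The share of genes with a peak varied with what lay upstream. It was 22.1% where the upstream neighbour lay on the opposite strand, 17.8% where it lay on the same strand, 14.2% for genes starting inside a gene on the same strand and 6.69% for genes starting inside a gene on the opposite strand. Replicate 2 gave 23.0%, 16.2%, 12.6% and 6.31%, and replicate 3 gave 21.2%, 18.3%, 14.7% and 7.26%. Among genes with a same-strand neighbour the share was 22.7% with a gap of 1 to 500 bp and 9.21% with a gap of 5001 to 10000 bp, and it was 13.2% with a wider gap (13.2% in replicate 2 and 13.8% in replicate 3). The median upstream gap was 590 bp for genes with a peak and 1104 bp for the other non-divergent genes.

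Genes just past the head-to-head limit of the rule had the highest shares by distance. Where the opposite-strand neighbour started 501 to 600 bp away, 204 of 340 genes (60.0%) had a peak, with 60.3% in replicate 2 and 53.5% in replicate 3. The share was 33.5% at 601 to 700 bp, 28.4% at 701 to 1000 bp, 17.6% at 1001 to 2000 bp, 11.8% at 2001 to 5000 bp and 11.2% beyond. A summit between close starts can count for both genes. With each summit given to its nearest TSS alone, the shares were 39.4% at 501 to 600 bp, 25.3% at 601 to 700 bp and 11.2% beyond 5000 bp. The 162 members at spacings of 501 to 600 bp had a median signal of 1.03 times the median IDR peak (1.24 in replicate 2 and 1.01 in replicate 3). The 921 members whose gene had no head-to-head start within 5000 bp had 1.03 times (0.935 and 1.01).

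Longer genes and genes with several starts had a peak more often. The share was 4.40% for genes up to 1000 bp long, 14.2% from 1001 to 2000 bp, 21.4% from 2001 to 5000 bp, 29.9% from 5001 to 10000 bp, 27.7% from 10001 to 50000 bp and 21.2% beyond. Genes with a peak had a median length of 3953 bp, and the others 1900 bp. With 1 annotated TSS 13.9% had a peak, with 2 TSSs 25.9%, with 3 TSSs 34.2%, with 4 TSSs 39.1% and with 5 or more 42.3%. More starts give more windows in which a summit counts, and the part of this in the trend was not tested.

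Relaxing the threshold added many promoter peaks. The lowest −log10 q in the pooled list was 0.232, so part of its peaks may be background. The pooled list of 30000 peaks held 6071 single-promoter peaks, and 34.1% of non-divergent genes had one. Of the 8285 such genes with no peak in the IDR list, 1653 (19.95%) had one in the pooled list. Among chemosensory genes 12 of 207 (5.80%) had a relaxed peak, against 48 of 55 (87.3%) of the cytoplasmic ribosomal protein genes.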

How the data were processed

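The authors deposited 4 peak lists on dm6, and the genome used here was Release 6 with the gene models of Ensembl release 115. Each peak had a signal value and a −log10 q value from the authors, and the scale of the deposited signal is not stated. The deposited −log10 q was capped at 4.23 in the IDR list, so it did not rank peaks. The sources used here give neither aligner nor peak caller. Reads of the control were not analysed here. Depth per library is unknown, and each replicate list held 30000 peaks. The values were read with Python 3.11.15, numpy 2.4.6 and pandas 2.3.3.

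Each IDR peak was matched to the strongest replicate summit within 250 bp. For a value of 1 replicate alone, as many of its strongest peaks were taken as the IDR list holds. The gene models excluded entries for transposable elements. Motifs were searched in 101 bp around the summit and 300 bp to either side. Classification and motif search were tested on simulated data. Members, the 18 gene lists and the 16 motifs were chosen with earlier results of these data known, and members of 2 lists (cuticle, aminoacyl-tRNA synthetases) were corrected by name afterwards. Named genes were the 20 strongest members, the strongest per arm, those nearest the median or the limits, the weakest, up to 4 strongest with a peak and 2 without per list, the strongest with each motif, and CG30020. CkIIalpha, Not3, kune, CG5167, Ufsp1 and the members outside heavily covered bins or over 5 Mb from them were named after their values were seen. The strongest with each motif, and those with neither, were taken outside 2R and heavily covered bins. Those printed for element A were taken outside 2R in any bin. The alternatives tried are given at the end.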

Additional observations from a re-analysis of the deposited data

How the results depend on the processing

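Peak lists of 2 replicates limit these results, as depth is unknown and regions are not replicates. No paired analysis was possible because there was 1 group. Of 54 alternatives 28 were counted as close to the reported value, 24 as moved and 2 turned the sign. Moved meant by at least the SD between the replicate lists, with 2 exceptions. The number of members had a wider limit, so that 1701 and 2491 counted as close to 2062. For the share matched in both replicates there was no such SD, and any change counted as moved. The median log2 signal of single minus divergent promoter peaks was -0.17. It was 0.15 among IDR peaks above the median signal and 0.059 with windows of 200 bp, so its sign depends on these choices. It was -0.24 with 1 summit per merged interval, -0.23 outside heavily covered bins, -0.15 with windows of 1000 bp and -0.15 to -0.14 without either replicate. The cause was not tested. The number of members ran from 1701 (1 per merged interval) to 2491 (windows of 200 bp). Without either replicate, the median offset was -108 to -85 bp, the DRE share 6.75% to 7.36% and the share of genes with a peak 16.9% to 17.7%. Peaks above the median signal gave an offset of -108 bp, DRE in 6.30%, Motif 1 in 3.05% and a peak at 9.02% of genes, and fewer peaks by construction lower the last. With 1 summit per merged interval 88.7% were upstream and DRE was in 8.0%. Windows of 1000 bp gave DRE in 6.84% and a peak at 16.1% of genes, windows of 200 bp gave 21.2% of genes, and leaving out heavily covered bins gave 16.6%. Sequence windows of 25 and 100 bp each side held DRE in 3.78% and 12.9% and Motif 1 in 2.18% and 8.68%, since wider windows hold more matches. Matching within 100 or 500 bp found 91.8% or 97.8% of members in both replicates.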
